A study of Mus musculus with 4 samples.

Results

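Gene desert sites were the accessible regions that lay farthest from any protein-coding gene. They were the autosomal ATAC-Seq sites that overlapped no protein-coding gene body and whose midpoint was more than 500 kb from every protein-coding transcription start site (TSS), and they numbered 1251 of the 82325 sites measured. The choice used position alone and none of the accessibility values. ATAC-Seq scores open chromatin by where the Tn5 transposase inserts sequencing adapters. The cells were immortalized mouse embryonic fibroblasts (imMEFs) on a C57bl6 background, carrying the viral large T antigen that was used to immortalize them, and were either HAT1 WT (HAT1+/+) or HAT1 KO (HAT1-/-). HAT1 is the enzyme that acetylates newly made histone H4 before it is built into chromatin. There were 2 libraries per genotype and 4 in all, each from a separately named line. Any difference between genotypes is therefore also a difference between 2 pairs of lines, and p-values measure the spread between these lines only. All libraries carried the immortalizing antigen, no treatment was given, and the gene was lost in every cell of the KO lines, from the embryo onward.

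A gene desert is a long stretch of the genome that holds no protein-coding gene. Many deserts are AT-rich, replicate late and lie against the nuclear lamina as heterochromatin, whereas others flank genes that control development and hold enhancers that act on them over long distances. An open site in a desert can thus be a distant enhancer of a gene at the desert's border, or an isolated open site within closed chromatin. Each desert is named here by the pair of protein-coding genes that border it.

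The sequences at the middle of 4 sites are shown first. The site values described later count reads over each whole site, which is longer than the stretch shown. The first 2 are the strong sites with the largest decreases in KO cells, the third is the single site called higher in KO cells, and the last is among the most accessible desert sites. Each is the plus strand of GRCm38 (RefSeq, the assembly also named mm10), 300 bases long and centred on the site's midpoint. The windows are chr2:101083723-101084022, chr1:145344546-145344845, chr2:108160875-108161174 and chr10:56921129-56921428, in the order printed. Capitals mark matches to TGANTCA, where N is any base. This pattern takes in the element bound by AP-1 (the FOS and JUN family of transcription factors) and reads the same on both strands. The sites are named by their bordering genes.
Gm10800-B230118H07Rik site: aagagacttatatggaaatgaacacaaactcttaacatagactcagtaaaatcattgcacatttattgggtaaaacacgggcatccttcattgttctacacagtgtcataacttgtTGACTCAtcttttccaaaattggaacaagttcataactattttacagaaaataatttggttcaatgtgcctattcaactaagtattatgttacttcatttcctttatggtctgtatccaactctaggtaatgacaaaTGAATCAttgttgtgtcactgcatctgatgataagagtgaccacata
Rgs18-Brinp3 site: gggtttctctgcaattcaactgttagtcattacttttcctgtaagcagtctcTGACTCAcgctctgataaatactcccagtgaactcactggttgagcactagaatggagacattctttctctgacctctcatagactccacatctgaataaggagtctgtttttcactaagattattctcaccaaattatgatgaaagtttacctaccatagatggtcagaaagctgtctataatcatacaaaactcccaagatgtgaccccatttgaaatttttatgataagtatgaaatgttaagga
Kcna4-Mettl15 site: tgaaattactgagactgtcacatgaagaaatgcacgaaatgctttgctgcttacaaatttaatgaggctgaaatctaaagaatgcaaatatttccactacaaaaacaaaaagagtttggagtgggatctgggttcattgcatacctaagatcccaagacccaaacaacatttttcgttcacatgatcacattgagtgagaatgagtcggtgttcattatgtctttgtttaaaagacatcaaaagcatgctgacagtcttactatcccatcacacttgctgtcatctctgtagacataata
Gja1-Hsf2 site: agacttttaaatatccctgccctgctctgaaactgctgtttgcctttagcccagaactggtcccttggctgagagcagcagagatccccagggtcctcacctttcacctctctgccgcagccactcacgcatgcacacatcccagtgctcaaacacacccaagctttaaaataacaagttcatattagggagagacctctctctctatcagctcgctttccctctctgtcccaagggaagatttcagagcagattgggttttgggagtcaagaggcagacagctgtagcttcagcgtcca
The window of the Gm10800-B230118H07Rik site held 2 matches, that of the Rgs18-Brinp3 site held 1, and those of the other 2 sites held 0.

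Values are normalized counts, which the authors obtained by scaling the reads in each site to the library. The approximate depth in sites was 5650000 to 11400000 reads, lower in both KO libraries. Single sites were tested in fits over all 82325 sites, except in an alternative limited to sites of higher signal. The fibroblast label was checked at 12 promoters. All 6 fibroblast genes examined (Col1a1, Col1a2, Col3a1, Pdgfrb, Twist1 and Prrx1) had an open site within 1 kb of the TSS, at 68 to 396 normalized counts. Of 6 genes of other cell types, Ptprc and Neurod1 had no site there, and Cdh1, Pecam1, Epcam and Krt8 had sites at 12 to 115 normalized counts.

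Desert sites were weaker than other sites, and they were weakest in 1 of the 2 KO libraries. The median normalized count of a desert site was 31 in WT replicate 1, 31 in WT replicate 2, 20 in KO replicate 1 and 33 in KO replicate 2. KO replicate 1 thus stood below the other libraries and KO replicate 2 above both WT libraries, so the genotypes overlapped. Over all sites the medians were 53, 52, 52 and 51 in the same order, close to each other. Desert sites under 10 normalized counts numbered 122, 111, 375 and 174 in the same order, and those at 0 numbered 0, 4, 24 and 14. A value of 0 allows up to 2.55, 2.14, 3.23 and 4.52 normalized counts, the value of 3 reads in each library, for counting error only. In bulk cells, fewer cells with an open site and less opening per cell cannot be told apart.

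KO replicate 2 thus also had more sites under 10 and more at 0 than either WT library, although its median was the highest. On the log2(normalized count + 1) scale, which understates the change of low values, the median difference from the WT mean was -0.37 in KO replicate 1 and 0.13 in KO replicate 2. The WT libraries differed from each other by a median of -0.18 (replicate 1 minus replicate 2). With both KO libraries averaged the median log2 fold change (KO against WT) of desert sites was -0.12, beside 0.01 over all sites. Desert sites held 0.744% and 0.809% of all normalized counts in the WT libraries and 0.617% and 0.859% in the KO libraries, and the difference between the means of 0.777% ± 0.046 and 0.738% ± 0.172 (SD, n = 2) did not pass an exact permutation test (two-sided p = 1). With 2 libraries against 2 the smallest p this test can give is 0.333. The mean log2 level of desert sites was below that of intergenic sites 10 to 100 kb from a TSS by 0.56 and 0.50 in the WT libraries, by 1.25 in KO replicate 1 and by 0.45 in KO replicate 2, and the genotype difference of -0.32 had an exact two-sided p = 1. Leaving out KO replicate 1 turned the sign of the median log2 fold change to 0.13. Quantile normalization brought this median to -0.0017 and a pseudocount of 8 to -0.079, and the difference of -0.32 became -0.17 and -0.18.

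The values of KO replicate 1 were lower farther from genes. Desert sites 500 to 600 kb from a TSS had a median difference from the WT mean of -0.21 in KO replicate 1, those at 600 to 750 kb -0.22, those at 750 to 1000 kb -0.73 and the 205 sites beyond 1000 kb -0.97. In KO replicate 2 the corresponding medians were 0.12, 0.13, 0.07 and 0.23, so the libraries of 1 genotype moved apart with distance. Intergenic sites closer to genes, at 10 to 100 kb, had medians of 0.03 in KO replicate 1 and -0.01 in KO replicate 2. Beyond 1000 kb, the median normalized count was 33 and 28 in the WT libraries, 13 in KO replicate 1 and 33 in KO replicate 2. At 49.3% of these far sites KO replicate 1 was at or under -1, compared with 8.72% of all sites. KO replicate 2 was at or under -1 at 18.5% of them, compared with 6.44% of all sites, and at or over 1 at 17.6%, compared with 5.08%. The WT libraries also differed more from each other there. WT replicate 1 minus WT replicate 2 was at or under -1 at 14.1% of the far sites and at or over 1 at 15.1%, compared with 7.76% and 5.76% of all sites.

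**Figure D1:**
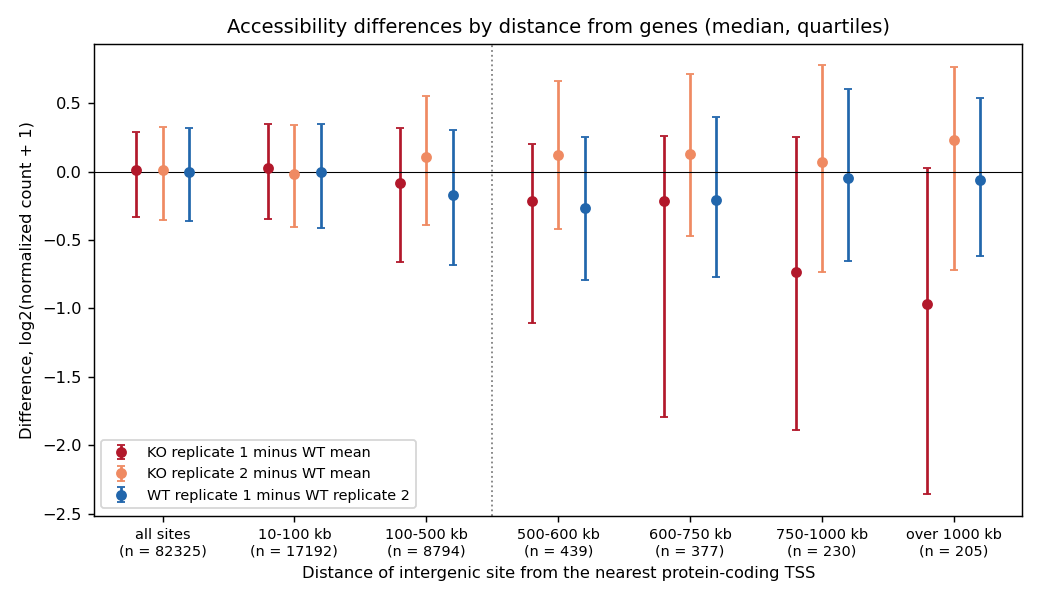
Median difference on the log2(normalized count + 1) scale (y axis) for all sites and for intergenic sites by distance from the nearest protein-coding TSS (x axis), with bars from the lower to the upper quartile of sites; sites right of the dotted line are desert sites. KO replicate 1 goes from a median of -0.21 at 500 to 600 kb to -0.97 beyond 1000 kb, while KO replicate 2 stays between 0.07 and 0.23.

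The differences were also read by the strength of the site. The signal quartiles were set over all sites by the mean of the 4 libraries, KO included, which sorts a site low in KO cells into a lower quartile. Among desert sites in the lowest quartile, the median difference from the WT mean was -0.80 in KO replicate 1 and -0.03 in KO replicate 2. In the highest quartile, with 120 desert sites, it was 0.10 in KO replicate 1 and 0.35 in KO replicate 2. Over all sites the lowest quartile gave -0.22 and -0.12 and the highest 0.08 and 0.10. With quartiles set instead by the mean of the WT libraries alone, which was done after the values were seen and sorts a site high in WT cells into a higher quartile, the lowest quartile of desert sites had medians of -0.54 and 0.14 in KO replicates 1 and 2, and the highest had 0.05 and 0.24. The 355 desert sites at or above the median signal of all sites had a median log2 fold change of 0.12 by the mean of the 4 libraries, and the 378 sites chosen by the WT mean had -0.03.

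Single sites were tested with limma on log2(normalized count + 1) over all 82325 sites, and called at an unadjusted p under 0.01 and a log2 fold change of at least 1 in size. Of the 1251 desert sites, 31 (2.48%) were called lower in KO cells, beside 0.302% of all sites. A single desert site (0.08%) was called higher, beside 0.0705% of all sites. Intergenic sites 100 to 500 kb from a TSS were called lower at 0.569% and those at 10 to 100 kb at 0.308%. No desert site, and no site of the table, had an adjusted p under 0.05 by limma with Benjamini-Hochberg adjustment, although 108 desert sites and 2579 of all sites had an unadjusted p under 0.05. In limma fits without WT replicate 1 or without WT replicate 2, 0 desert sites were called lower, and 31 and 41 had an unadjusted p under 0.05 with a log2 fold change at or under -1, compared with 86 in the full fit. Over all sites 0.0243% and 0.017% were called lower in these 2 fits. Without KO replicate 1, 19 desert sites (1.52%) were called lower beside 0.267% of all sites, and without KO replicate 2 there were 76 (6.08%) beside 0.666%.

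At all 31 sites called lower, both KO values were below both WT values. None of their KO values exceeded 86 normalized counts, and none of their WT values was under 27. Both KO values were under 10 normalized counts at 13 of these sites. KO replicate 1 was below KO replicate 2 at 18 of the 31, so neither KO library was the lower throughout at these sites. The call favours sites at which the libraries of a genotype are alike and the genotypes differ. The lack of overlap and the likeness of the KO libraries thus partly follow from the call. They lay in 19 deserts, and 22 of them had an AP-1 match in their window, beside 717 of all 1251 desert sites. Both KO values lay below both WT values at 245 desert sites (19.6%), beside 14.3% of all sites, and above them at 135 (10.8%), beside 14.6% of all sites. KO replicate 1 was below the WT mean at 64.9% of the desert sites and KO replicate 2 at 43.4%.

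The largest fall among strong sites was at chr2:101083516-101084229, 541 kb from the TSS of Rag2, a gene of the recombinase that assembles antigen receptors. Its normalized counts were 90 and 146 in the WT libraries and 19 and 9 in the KO libraries, and its log2 fold change was -3.03 ± 0.49 (SE, limma unadjusted p = 0.000685, adjusted p = 1). A second site of the same Gm10800-B230118H07Rik desert, at chr2:100964557-100965093, had 99 and 114 in WT and 24 and 30 in KO, a log2 fold change of -1.95 ± 0.33 (limma unadjusted p = 0.000956). At both sites every KO value lay well under every WT value. The desert held 5 desert sites, and in each of them both KO libraries were below the WT mean.

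The other strong falls described here lay in 3 further deserts. At chr1:145344320-145345070, between Rgs18, a regulator of G-protein signalling, and Brinp3, the WT libraries had 93 and 132 normalized counts and the KO libraries 22 and 27, a log2 fold change of -2.14 ± 0.36 (limma unadjusted p = 0.00084). Each KO value was under both WT values, and the call was lost in each of the 4 fits without 1 library (log2 fold changes of -2.39 to -1.89). At chr16:79590837-79591418, between Tmprss15, the intestinal enteropeptidase, and Ncam2, a neural cell adhesion molecule, they had 144 and 118 in WT and 23 and 47 in KO, a log2 fold change of -1.95 ± 0.42 (limma unadjusted p = 0.00311). At chr14:82065150-82065680, between Olfm4 and the protocadherin gene Pcdh17, they had 86 and 91 in WT and 24 and 35 in KO, a log2 fold change of -1.58 ± 0.35 (limma unadjusted p = 0.00393). This last site was 2081 kb from the nearest protein-coding TSS, the deepest in a desert of the 5. None of the 5 sites overlapped an annotated noncoding gene, and all 5 windows had an AP-1 match.

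The single site called higher was at chr2:108160624-108161424, between the potassium channel gene Kcna4 and Mettl15, a methyltransferase of mitochondrial ribosomal RNA. It had 141 and 91 normalized counts in the WT libraries and 235 and 307 in the KO libraries, a log2 fold change of 1.24 ± 0.29 (limma unadjusted p = 0.00474, adjusted p = 1). The groups did not overlap. The call was lost in each of the 4 fits without 1 library, with log2 fold changes of 0.92 to 1.55. Its window, the third sequence printed, had no match to any of the 6 motifs searched.

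The most accessible desert sites were chosen by the mean of all 4 libraries, so that a site low in KO cells is less likely to be among them. A site at chr18:55623556-55624819 between the zinc finger gene Zfp608 and Gramd3 had 268 and 446 normalized counts in WT and 379 and 429 in KO. A site at chr10:56920780-56921776, between the connexin 43 gene Gja1 and the heat shock factor gene Hsf2, had 306 and 324 in WT and 337 and 450 in KO. These 2 sites had higher means in KO cells, with log2 fold changes of 0.22 and 0.31 that did not pass the test. Between Myc and Gsdmc, at chr15:62658548-62659533, the values were 186 and 353 in WT and 505 and 293 in KO. Between Csmd3 and Trps1, a GATA-type repressor gene, at chr15:50172162-50172755, they were 285 and 224 in WT and 372 and 426 in KO. Between the neuromedin B receptor gene Nmbr and Cited2, a transcriptional coregulator gene, at chr10:17012039-17012978, they were 263 and 324 in WT and 312 and 371 in KO. These 5 sites all had a log2 fold change above 0, from 0.22 to 0.65, and none was called. The highest values of the Fam181b-Tenm4 desert differed within each genotype, at 183 and 452 normalized counts in WT and 68 and 365 in KO. The maximum of KO replicate 2 thus lay between the WT maxima, and only that of KO replicate 1 lay below both. The sites of Myc-Gsdmc and Nmbr-Cited2 lay within annotated noncoding genes.

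**Figure D2:**
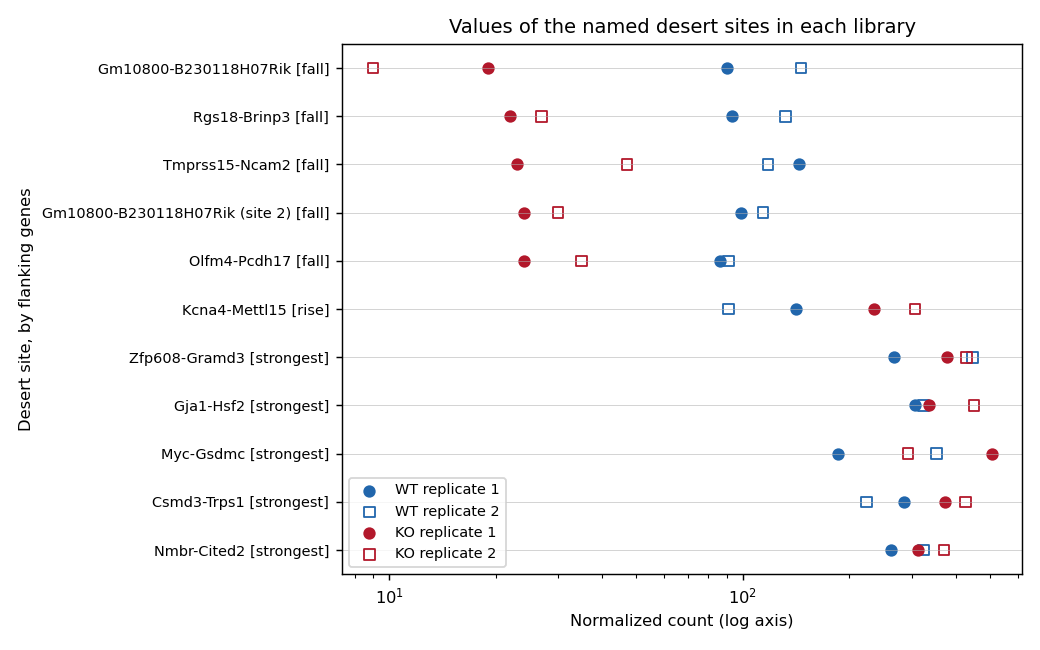
Normalized counts (x axis, log scale) of 11 named desert sites (y axis, by bordering genes and by whether they were named as a fall, a rise or among the strongest) in each of the 4 libraries, 1 point per library. At the 5 falls both red KO points lie left of both blue WT points, from 9 to 47 against 86 to 146 normalized counts over all 5 sites, and at the strongest sites the colours are mixed or KO lies to the right.

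The sites deepest in deserts were less uniform. The farthest of all, at chr14:91326781-91327009 and 2564 kb from the TSS of the protocadherin gene Pcdh9, had 7 and 26 normalized counts in WT and 5 and 3 in KO. The next, at chr8:51032443-51032817 in the Tenm3-Aga desert, had 59 and 15 in WT and 2 and 27 in KO. The third, at chr1:102628089-102628449 between Cntnap5b and the cadherin gene Cdh20, had 150 and 114 in WT and 180 and 247 in KO. The order of the genotypes thus differed among these 3 sites, and none was called. At the 500 kb limit, the sites just inside were the Tmprss15-Ncam2 site described above, a site of the Kif20b-Htr7 desert with 14 and 4 in WT and 30 and 5 in KO, and a site of the Gja1-Hsf2 desert with 57 and 59 in WT and 74 and 83 in KO. Just outside were a Pkn2-Lmo4 site (21 and 19 in WT, 11 and 29 in KO), an Adamts5-N6amt1 site (128 and 257 in WT, 204 and 374 in KO) and a Tox-Car8 site (21 and 6 in WT, 13 and 20 in KO).

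The desert sites lay in 217 deserts, whose length between gene bodies had a median of 1.45 Mb and reached 4.67 Mb. There were 37 deserts with at least 10 desert sites, and these held 599 of the 1251. Sites of the same desert had similar differences: the share of the variance among these 599 sites that lay between deserts was 0.627 for KO replicate 1 against the WT mean, 0.453 for KO replicate 2 and 0.134 for WT replicate 1 against WT replicate 2. Among the 37 deserts the mean of KO replicate 1 was negative in 22, that of KO replicate 2 was negative in 9, and both were negative in 6. The mean was under -1 in 8 deserts for KO replicate 1, in 2 deserts for KO replicate 2, and in a single desert for both. The same comparison between the WT libraries went beyond 1 in size in a single desert. The 1137 desert sites outside the 8 deserts still had a median of -0.25 in KO replicate 1 and 0.13 in KO replicate 2.

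**Figure D3:**
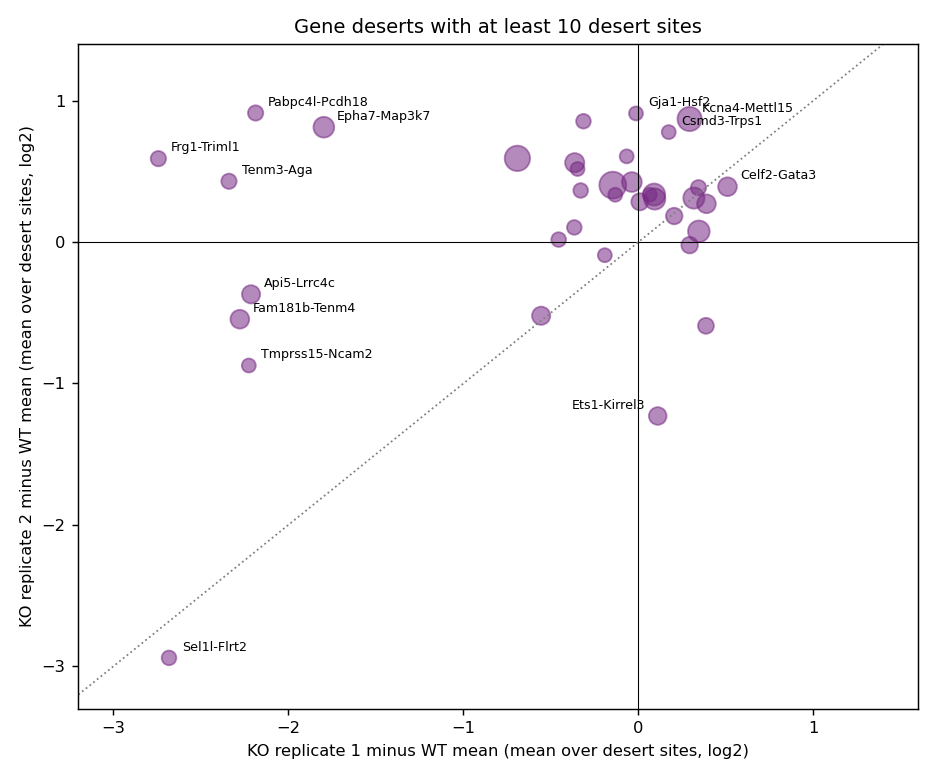
Mean difference from the WT mean over the desert sites of each desert (log2 of normalized count + 1) in KO replicate 1 (x axis) and KO replicate 2 (y axis), for the 37 deserts with at least 10 desert sites; circle area follows the number of sites and the dotted line marks equal values. Among these 37, Sel1l-Flrt2 stands alone at -2.68 and -2.94, and 7 other deserts lie under -1 in KO replicate 1 but above -1 in KO replicate 2.

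Of the 37 deserts, the one with a mean under -1 in both KO libraries was Sel1l-Flrt2 on chromosome 12, between Sel1l, a gene of endoplasmic reticulum-associated degradation, and Flrt2, an adhesion and axon guidance molecule. Its 11 desert sites had a median normalized count of 28 and 39 in the WT libraries, 3 in KO replicate 1 and 5 in KO replicate 2. KO replicate 1 was below the WT mean at 11 of 11 sites and KO replicate 2 at 10 of 11, with 1 and 4 sites at 0. The mean log2 fold change was -2.81, and 4 of the 11 sites were called lower. The highest-valued of these, at a position 1.83 Mb from Sel1l, had 72 and 64 in WT and 1 and 6 in KO. The 22 other sites of the same interval, which lay within 500 kb of a coding TSS, had means of -0.57 and -0.16 in KO replicates 1 and 2, and 28 sites beyond the bordering gene ends had -0.39 and -0.21. Across the 8 deserts under -1 in KO replicate 1, the other sites of the interval had means in that library from -2.47 to 0.08, with a median of -1.80, so low values were not limited to the desert sites.

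The next 3 deserts by mean log2 fold change were low mainly in KO replicate 1. In Tmprss15-Ncam2 (10 sites) the median normalized count was 36 and 41.5 in WT and 10.5 and 23.5 in KO, a mean log2 fold change of -1.55. In Fam181b-Tenm4 (18 sites), beside the teneurin gene Tenm4, it was 22.5 and 32.5 in WT and 5 and 17.5 in KO, a mean of -1.41. In Api5-Lrrc4c (17 sites), beside the netrin-G ligand gene Lrrc4c, it was 33 and 44 in WT and 10 and 27 in KO, a mean of -1.29. In each of these 3 deserts both KO medians were below both WT medians, and KO replicate 1 was the lower. They held 2, 0 and 1 called sites. A desert with fewer than 10 sites, D3Ertd751e-Pcdh10 on chromosome 3, was singled out after its values were seen because 4 of its 7 sites were called lower, and both KO libraries were below the WT mean at 7 of 7. Its means were -2.73 and -1.76 in KO replicates 1 and 2. Other deserts with fewer than 10 sites were also low in both, among them Tlr4-Brinp1 (8 sites, -2.78 and -2.82) and the Gm10800-B230118H07Rik desert (5 sites, -2.54 and -2.17).

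In 4 of the 37 deserts the mean was under -1 in KO replicate 1 but above 0 in KO replicate 2. Epha7-Map3k7, between an ephrin receptor gene and the gene of the kinase TAK1, had 22 desert sites with medians of 32.5 and 29 normalized counts in WT, 8 in KO replicate 1 and 49.5 in KO replicate 2. KO replicate 1 was below the WT mean at 22 of 22 sites and KO replicate 2 at 3. Frg1-Triml1 (12 sites) had medians of 16 and 48 in WT, 2.5 in KO replicate 1 and 43.5 in KO replicate 2. Of the 37 deserts it was the one in which the WT libraries differed most. Tenm3-Aga (12 sites) had 29 and 18.5, 3.5 and 30, and Pabpc4l-Pcdh18 (12 sites) had 20 and 22.5, 3.5 and 42. None of the 58 sites of these 4 deserts was called by limma, beside 0.302% of all sites called lower and 0.0705% called higher. An unadjusted limma p under 0.05 was found at 1 of the 58, where 3.13% of all sites had one. These deserts were set apart because their KO libraries differed, which makes a call unlikely. The lack of calls follows from that choice and is no result about them. The opposite case was Ets1-Kirrel3, whose 16 sites had medians of 29 and 26 in WT, 31 in KO replicate 1 and 9 in KO replicate 2.

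**Figure D4:**
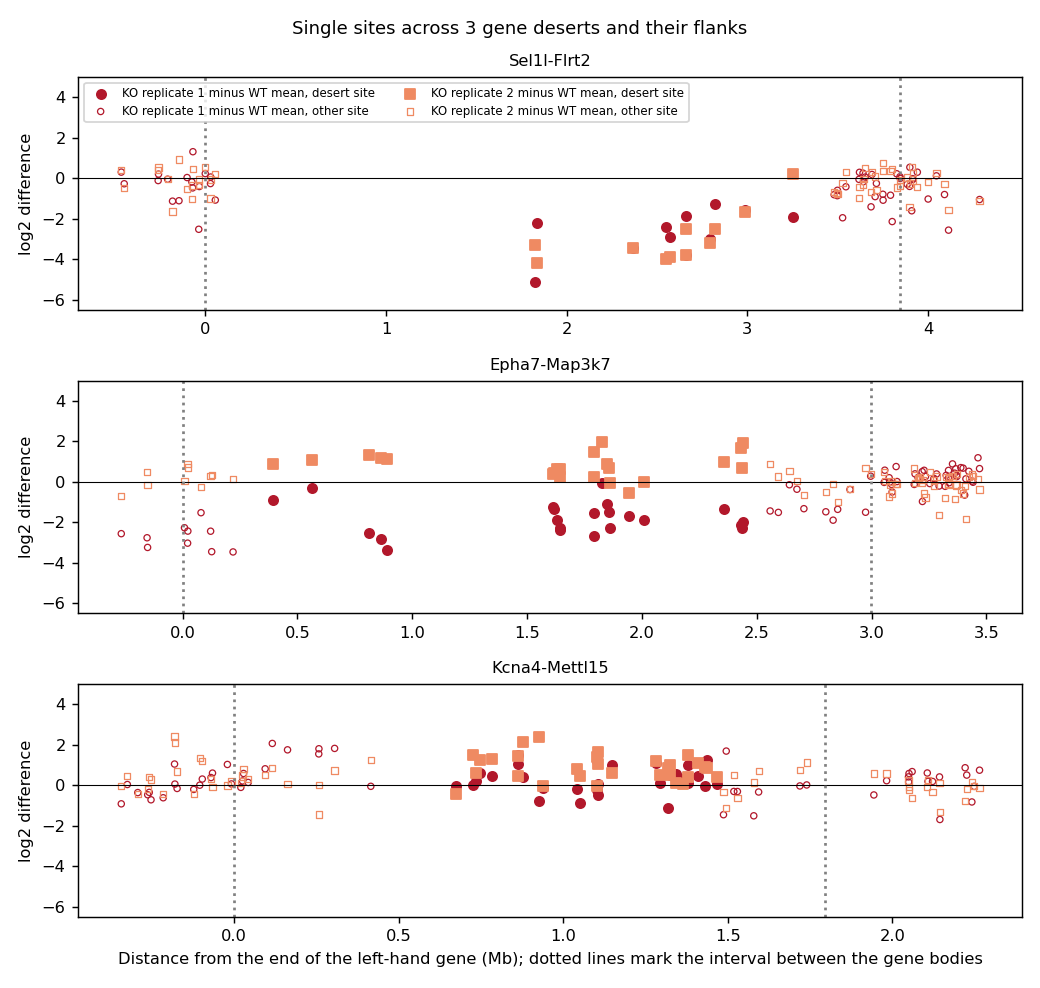
Difference of each KO library from the WT mean (y axis, log2 of normalized count + 1) at single sites across 3 deserts, by distance from the end of the left-hand bordering gene (x axis, Mb); filled symbols are desert sites and open symbols are other sites of the interval and of the 500 kb beyond it. Of the desert sites, KO replicate 1 lies below 0 at 11 of 11 and KO replicate 2 at 10 in Sel1l-Flrt2, at 22 of 22 and at 3 in Epha7-Map3k7, and at 9 of 30 and at 3 in Kcna4-Mettl15.

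The deserts with the highest means showed smaller changes. Kcna4-Mettl15, with 30 desert sites, had medians of 27.5 and 23 normalized counts in WT and 33 and 49 in KO, a mean log2 fold change of 0.58. Csmd3-Trps1 (10 sites) had 16 and 18.5 in WT and 20.5 and 35.5 in KO, a mean of 0.48. Celf2-Gata3 (18 sites), beside the gene of the T cell and mammary regulator GATA3, had 22 and 23 in WT and 37 and 27 in KO, a mean of 0.45. Gja1-Hsf2 (10 sites) had 70 and 77 in WT and 73 and 183.5 in KO, a mean of 0.45. KO replicate 2 was the higher KO library in 3 of these 4.

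With both KO libraries averaged, most of the deserts richest in sites changed little. Nmbr-Cited2, with 37 sites the richest, had medians of 54 and 64 in WT and 52 and 71 in KO. Slc10a2-Efnb2 (33 sites), beside the ephrin-B2 gene, had 21 and 25 in WT, 15 in KO replicate 1 and 42 in KO replicate 2. Zeb2-Acvr2a (25 sites), between a repressor of epithelial genes and an activin receptor gene, had 30 and 26 in WT and 25 and 33 in KO. These 3 had mean log2 fold changes between -0.05 and 0.21. In Slc10a2-Efnb2 that mean joined opposite differences from the WT mean, -0.69 in KO replicate 1 and 0.59 in KO replicate 2. Myc-Gsdmc (24 sites) had 30 and 47 in WT and 48 and 41 in KO, Cdh18-Basp1 (23 sites) had 31 and 31 in WT and 37 and 32 in KO, and Inhba-Sugct (23 sites), beside an activin subunit gene, had 59 and 55 in WT and 51 and 81 in KO. None of the 165 sites in these 6 deserts was called by limma and 2 had an unadjusted p under 0.05, beside 0.302% called lower and 3.13% with such a p over all sites. Kcna4-Mettl15 and Epha7-Map3k7, described above, were the other two of the 8 richest.

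Deserts were also grouped by their bordering genes. A list of 134 developmental transcription factor and ligand genes had 32 members at a desert's border, and their 33 deserts held 212 desert sites. The median normalized count of these sites was 31 and 34.5 in WT and 32 and 36 in KO, and the median log2 fold change was -0.03. By limma 0 of 212 sites were called in either direction, beside 0.302% of all sites called lower and 0.0705% called higher. An unadjusted limma p under 0.05 was found at 8 of the 212, beside 3.13% of all sites. A list of 78 adhesion and axon guidance genes had 42 members at a border, and their 46 deserts held 295 sites. Here the medians were 31 and 30 in WT, 11 in KO replicate 1 and 30 in KO replicate 2. The median log2 fold change was -0.64, and 14 sites (4.75%) were called lower and 0 higher. Of these 14, the deserts Sel1l-Flrt2 and D3Ertd751e-Pcdh10 held 4 each. Sites of the same desert had similar differences, so the sites do not count as independent. An unadjusted limma p under 0.05 was found at 36 of the 295. The 744 sites bordered by neither list had 31 and 31 in WT, 22 in KO replicate 1 and 35.5 in KO replicate 2, a median of -0.05, and 17 (2.28%) were called lower. The 3 groups were nearly alike in the WT libraries and differed most in KO replicate 1. The lists were drawn up with earlier results of these data known, and the difference between them was not tested.

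Desert sites differed from other sites in sequence. Their 300-bp windows had a median GC content of 40.7%, compared with 44.3% for intergenic sites at 100 to 500 kb, 47.3% at 10 to 100 kb and 48.3% for all sites, and the 100 kb around them had 38.2% compared with 44.3%. They had a median length of 393 bp compared with 440 bp and a median of 14.4 kb to the next site compared with 5.31 kb. Soft-masked repeats filled a median of 8.67% of the window compared with 7.33%. An annotated noncoding gene overlapped 180 of them (14.4%) compared with 11.9% of all sites. The share was higher among intergenic sites nearer to genes, at 19.4% for 100 to 500 kb and 16.7% for 10 to 100 kb. Within 3 kb of a noncoding TSS lay 80 of the 1251 desert sites, compared with 8901 of all 82325 sites. In 66 of the desert windows (5.28%) at least 50% of the bases were masked, compared with 3.74% of all windows.

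The AP-1 pattern TGANTCA was the most frequent of 6 motifs searched on both strands, none of which contains another. It was found in 57.3% of the desert windows, 50.8% of intergenic windows at 100 to 500 kb, 42.9% at 10 to 100 kb and 37.7% of all windows. The TEAD element GGAATG was found in 33.7% of desert windows, 31.6% of intergenic windows at 100 to 500 kb and 24.7% of all windows. The CCAAT box CCAAT was found in 37.3%, 36.5% and 32.5% in the same order. The RUNX element TGTGGTTT was found in 5.92%, 6.14% and 4.32%. For TEAD, CCAAT and RUNX the desert windows were thus close to the intergenic windows at 100 to 500 kb. The core AGNNGGCNG of the insulator factor CTCF ran the other way, with 11.4% of desert windows, 17.7% at 100 to 500 kb and 27.5% of all. The E-box CAGCTG was found in 13.8%, 17.5% and 18.9%. Desert sites with and without an AP-1 match had near-equal medians in every library, of 32 and 29 normalized counts in WT replicate 1, 33 and 30 in WT replicate 2, 20 and 20 in KO replicate 1 and 33 and 35 in KO replicate 2. Base composition differs between these sets and was not adjusted for.

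**Figure D5:**
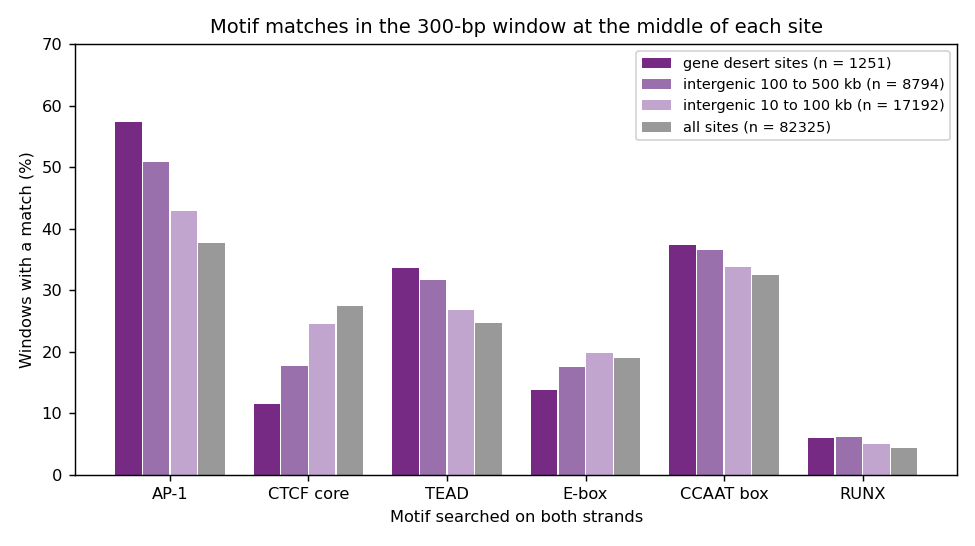
Share of 300-bp windows with at least 1 match (y axis, %) for 6 motifs (x axis) in desert sites, in 2 sets of intergenic sites nearer to genes and in all sites. AP-1 goes from 37.7% of all windows to 57.3% of desert windows, and the CTCF core from 27.5% to 11.4%.

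Domains of lower accessibility were found with the study's rule, a mean log2 fold change under -0.58 over 25 neighbouring sites, with windows up to 1 Mb apart joined. Of the desert sites, 285 (22.8%) lay inside such a domain, compared with 8.12% of intergenic sites at 100 to 500 kb and 3.80% of all sites. The share was 16.4% at 500 to 600 kb from a TSS and 28.8% beyond 1000 kb. The desert sites themselves are part of the windows that define a domain, so the share is a description. Of the 31 desert sites called lower, 25 lay inside a domain. All sites of Sel1l-Flrt2, Tmprss15-Ncam2, Fam181b-Tenm4 and Api5-Lrrc4c did. Without KO replicate 1 the share of desert sites inside domains was 12.2%, and without KO replicate 2 it was 35.6%.

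The chromosomes differed in how many desert sites they held and in how these behaved. Chromosome 3 held the most, 136, and chromosome 19 the fewest, 10. The median difference of desert sites from the WT mean was below 0 on 17 of 19 autosomes in KO replicate 1 and on 5 in KO replicate 2, and KO replicate 1 was the lower on 17. In KO replicate 1 the lowest medians were -2.16 on chromosome 12, which holds the Sel1l-Flrt2 desert, and -1.74 on chromosome 7. Over all sites of these chromosomes the medians of KO replicate 1 were 0.10 and -0.03. Chromosomes 11 and 15 were the exceptions, at 0.17 and 0.31.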

How the data were processed

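ATAC-Seq had been performed on imMEF lines, 2 HAT1 WT and 2 HAT1 KO. Per the labels and methods, alignment to mm10 was done with BWA 0.7.12, peak calling with MACS2 2.1.0 and the comparison of genotypes with DESeq2. The deposited table gives 82325 merged sites with 1 value per library, a score that the authors made by dividing the read count by a library factor and rounding to whole numbers. Its columns of fold changes, p-values and adjusted p-values from their comparison were not used. Read filtering, multi-mapping and the Tn5 offset were not given in the sources used here. Replicates were numbered in accession order. Depth was estimated from the steps that scaling leaves in low values. Reads are not independent molecules, so limits for values of 0 cover counting error only.

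Distances and overlaps used gene-level GENCODE vM21 protein-coding genes (21951), and windows were read from GRCm38.p6, the same assembly. All 82325 sites lay within its chromosome lengths. limma 3.58.1 (R 4.3.3), with an intensity trend, was fitted on log2(value + 1) at all sites with no filter and tested on simulated data. Other summaries used Python 3.11.15. Alternatives were a pseudocount of 8, equal totals, quantile normalization, stronger sites, other distances and gene sets, other variance settings, other domain windows and leaving out each library.

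The named sites were, of called desert sites whose mean reached that of the median site, up to 6 largest falls and 6 largest rises, the 6 strongest desert sites, the 3 farthest from a TSS and 3 on each side of the distance limit. The named deserts were the 8 with most sites and, of those with at least 10, the 4 lowest and 4 highest means, with the deserts under -1 in a KO library added after their values were seen. Of the sites so named, 2 are not reported here. Profiles across deserts, promoter markers and signal quartiles were also added then. The members and lists were chosen with earlier results of these data known.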

Additional observations from a re-analysis of the deposited data

How the results depend on the processing

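The 31 lower calls and the 1 higher call among desert sites moved by less than 1.5 times under a pseudocount of 8, equal totals, quantile normalization and robust variances, and became 50 (4.00% beside 0.578% of all sites) and 2 without limma's trend. Of desert sites with higher signal by the mean of the 4 libraries, KO included, 9 were called lower in the fit over all sites (2.54%). That fit called 0.245% of all sites of higher signal lower. A separate limma fit on sites of higher signal alone called 7 of the desert sites lower (1.97% beside 0.184%). Both KO values lay below both WT values at 37 of the desert sites with higher signal (10.4%, beside 10.2% of all sites of higher signal). They lay above at 58 (16.3% beside 19.6%). Of these desert sites, 14.9% lay inside the domains found from all sites, beside 2.21% of all sites of higher signal. With domains found from sites of higher signal alone, the share was 3.10%. The median log2 fold change was 0.12. With sites chosen by the WT mean, an alternative added after seeing the data, the median was -0.03. Beyond 250 kb from a TSS the counts were 53 lower (1.30% beside 0.302%), 5 higher, 675 below and 462 above, with 14.9% inside domains, and beyond 1 Mb they were 9 (4.39%), 0, 48 and 14. These distances change the number of members, to 4082 and 205. Over all sites 0.0705% were called higher, 14.3% had both KO values below both WT values and 14.6% above. With all annotated genes only 4 members remained, with 0 lower, 0 higher, 0 below and 1 above, a median of 1.66 and a difference from nearer intergenic sites of 0.87. Quantile normalization turned the KO minus WT difference in signal share from -0.039 to 0.0033 percentage points and put 12.7% inside domains, and windows of 51 sites put 13.6% there. The cause was not tested.

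Leaving out 1 library gave 0 to 76 lower calls (0 without WT replicate 1 and 0 without WT replicate 2) and 0 to 3 higher calls. A lone library was assumed to vary like the other genotype. The median log2 fold change ranged from -0.37 without KO replicate 2 to 0.13 without KO replicate 1, the difference from intergenic sites at 10 to 100 kb from -0.72 to 0.079 and the signal share from -0.160 to 0.0825 percentage points, so all 3 turned sign without KO replicate 1. Sites with KO below WT in every library numbered 351 to 641, those above 255 to 512, and 12.2% to 35.6% lay inside domains. With a library left out fewer values must be in order. The numbers below and above are therefore larger for that reason alone and not comparable with those from all 4 libraries. The site of Zfp608-Gramd3 ranged from -0.15 to 0.59. Mean log2 fold changes ranged from -0.15 to 0.40 for Nmbr-Cited2, -0.69 to 0.59 for Slc10a2-Efnb2, -0.011 to 0.43 for Myc-Gsdmc, -1.80 to 0.81 for Epha7-Map3k7 and -0.014 to 0.91 for Gja1-Hsf2. Slc10a2-Efnb2 was also 0.0045 with a pseudocount of 8 and 0.19 with quantile normalization. At named sites 19 calls were lost when a library was left out.

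No paired analysis was possible because the labels give the libraries no replicate numbers. The line names of 1 WT and 1 KO library share leading digits, but no label says what these mark, and a single shared number allows no paired fit. Sites under 10 normalized counts rest on few reads, and both KO libraries had fewer reads than the WT libraries.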

Other observations

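On chromosome X, 10 of 1844 sites met the same distance rule as the autosomal desert sites. Their median normalized count was 22 in WT replicate 1, 28 in WT replicate 2, 12.5 in KO replicate 1 and 22 in KO replicate 2. The median difference from the WT mean was -0.61 in KO replicate 1 and -0.25 in KO replicate 2, beside -0.08 and -0.04 over all sites of the chromosome, and none of the 10 sites was called by limma in either direction. At 4 of them both KO values lay below both WT values, and at 1 above.

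The rank order of desert sites was less alike between libraries than that of all sites. Desert sites were also weaker, with 28.4% of them at or above the median signal of all sites. Sites of like signal were not compared. Spearman's rho over the 1251 desert sites was 0.686 for the WT pair and 0.561 for the KO pair, compared with 0.877 and 0.835 over all sites, where the points share library depth and the sites' general strength. Within the KO pair the log2 difference had an SD of 1.57 over desert sites and 0.939 over all sites, and within the WT pair 1.09 and 0.702.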
